A study of Mus musculus with 2 samples.

Results

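The genes of 10 calcium-handling and sugar-binding proteins were followed across the cells of mouse lung organoids: the S100 genes S100a4, S100a6, S100a8, S100a9, S100a10 and S100a11, the annexins Anxa1, Anxa2 and Anxa3, and Lgals3, which encodes galectin-3. They were taken by gene symbol, 10 of the 27998 genes of the deposited count tables, and each symbol names a single row. AT2 cells, the surfactant-producing cells of the alveolus, had been sorted from lungs of C57BL/6 mice carrying SPC-CreERT2;R26RTomato (the labels also write Sftpc-CreERT2 and R26RtdTomato), in which tamoxifen activates a Tomato reporter in cells that express surfactant protein C. They were grown in Matrigel for 2 weeks together with cultured lung stromal cells and received either PBS (control) or the inflammatory cytokine IL-1β. Both arms share the genotype, the tamoxifen and the stromal cells, and each gave 1 single-cell 3′ library. The study's sources give different doses of IL-1β and days of harvest, so neither is stated beyond the 2 weeks of the labels.

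S100 proteins are small EF-hand proteins, most of which change shape on binding calcium and then dock onto partner proteins. Annexins bind phospholipid membranes when calcium rises, and S100a10 and S100a11 pair with Anxa2 and Anxa1 at the cell surface and at membrane tears. S100a8 and S100a9 form calprotectin, the abundant antimicrobial protein of neutrophils, and can signal through Ager and Tlr4. Galectin-3 binds galactose-containing glycans on surface proteins such as Cd44 and is associated with macrophages, injured epithelium and fibrosis.

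S100a4, S100a6, S100a8 and S100a9 lie in the same stretch of chromosome 3 (GRCm38, GENCODE M21). S100a4 occupies bases 90603771 to 90606045 on the plus strand and S100a6 bases 90612882 to 90624181 on the plus strand. S100a8 occupies bases 90668978 to 90670035 on the plus strand, and S100a9 lies 22.6 kb beyond it, at bases 90692632 to 90695721 on the minus strand. S100a11 (93520488 to 93526287) and S100a10 (93555080 to 93564643), both on the plus strand, are farther along chromosome 3. Anxa1 is on chromosome 19 (20373428 to 20390944, minus strand), Anxa2 on chromosome 9 (69453620 to 69491795, plus strand), Anxa3 on chromosome 5 (96793339 to 96845966, plus strand) and Lgals3 on chromosome 14 (47367751 to 47386160, plus strand).

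The 250 bases before the RefSeq start of 4 of these genes are shown (GRCm38.p6, read 5′ to 3′ in the direction of transcription). They are 3 genes of the chromosome 3 stretch with divergent levels and Anxa1, the annexin with the largest IL-1β-to-control ratio. S100a6, which lies between S100a4 and S100a8, is not shown. For S100a8 and Anxa1 the RefSeq start lies inside the GENCODE positions given above, so the bases shown reach into them. Capitals mark TATAAA, the core of the TATA box, which was searched on both strands. The stretches are chr3:90603520-90603769 for S100a4, chr3:90668821-90669070 for S100a8, chr3:90695722-90695971 for S100a9 (minus strand) and chr19:20390672-20390921 for Anxa1 (minus strand).
S100a4: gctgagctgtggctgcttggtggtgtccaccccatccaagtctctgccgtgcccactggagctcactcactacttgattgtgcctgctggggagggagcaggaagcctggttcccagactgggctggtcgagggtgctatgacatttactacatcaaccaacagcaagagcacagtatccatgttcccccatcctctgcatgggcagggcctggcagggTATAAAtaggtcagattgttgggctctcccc
S100a8: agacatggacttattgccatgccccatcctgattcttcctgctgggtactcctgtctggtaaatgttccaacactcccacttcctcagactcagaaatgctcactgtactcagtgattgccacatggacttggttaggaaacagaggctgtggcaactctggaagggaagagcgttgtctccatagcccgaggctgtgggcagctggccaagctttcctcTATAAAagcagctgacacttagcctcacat
S100a9: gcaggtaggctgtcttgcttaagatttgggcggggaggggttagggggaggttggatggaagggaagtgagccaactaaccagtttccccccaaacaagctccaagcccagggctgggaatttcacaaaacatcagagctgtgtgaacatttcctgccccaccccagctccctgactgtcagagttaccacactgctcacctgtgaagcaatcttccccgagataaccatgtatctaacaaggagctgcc
Anxa1: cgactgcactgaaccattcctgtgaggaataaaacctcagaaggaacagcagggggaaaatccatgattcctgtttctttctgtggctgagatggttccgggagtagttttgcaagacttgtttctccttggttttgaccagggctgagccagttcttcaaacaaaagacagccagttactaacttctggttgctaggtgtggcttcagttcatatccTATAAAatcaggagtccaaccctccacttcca
In S100a4 the motif spans bases 31 to 26 before the start, in S100a8 bases 30 to 25 and in Anxa1 bases 32 to 27. It is absent from these letters of S100a9. Promoters were found for 8 of the 10 genes, and 4 of the 8 held TATAAA (Anxa2 is the fourth), against 12.4% of 32851 mouse promoters of the same length. The AP-1 motif TGANTCA was in 2 of the 8, S100a11 and Anxa2, against 6.75% of all promoters. These matches describe sequence only.

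The control library held 2101 barcodes and the IL-1β library 3066, with medians of 14613 and 11496.5 unique molecular identifiers (UMIs) per barcode. Only 11 barcode sequences occurred in both. After the cell cutoffs, clusters of each library were named from marker genes, giving 945 control and 2039 IL-1β AT2-like cells, 111 and 114 transitional-like cells (Krt8- and Cldn4-high cells between AT2 and AT1), 170 and 387 AT1-like cells (flat gas-exchange cells), and 750 and 478 stromal-like cells. Levels are UMIs of a gene per 1000000 UMIs of the class (CPM), with exact Poisson 95% intervals in brackets that cover counting error only. With 1 library per condition no test is possible, and IL-1β and differences between single cultures cannot be told apart. A gene was called when its ratio was at least 2 or at most 0.5 and it had at least 50 UMIs over the groups compared. A lower level in a class can mean fewer cells that hold the RNA as well as less RNA per cell, and shares of cells are therefore given too.

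The transitional-like class is the least certain. Its control cluster was led by Cldn4, Clu, Crym and Fn1 and its IL-1β cluster by genes that include F3. Sprr1a and Tpm2 were among the leading genes of both. Rtkn2, an AT1 gene, was at 147 CPM in the control cluster and 4.07 CPM in the IL-1β cluster. Ndrg1, a marker of the transitional state, was at 3.44 and 307 CPM. The class held 14 to 153 control cells and 298 to 451 IL-1β cells under the other clusterings and cell filters that gave it in both libraries. Its levels below rest on the 111 and 114 cells that bear the name here, and its ratios moved with that choice. Between the libraries the log2 ratio of S100a6 in this class ran from -4.44 to -0.04 over 14 alternatives (-0.11 here), that of S100a11 from -1.10 to 0.64 (0.11 here) and that of Anxa3 from -1.84 to -0.09 (-0.16 here). Here and below, alternatives that change only the fold or the filter on low counts leave a ratio as it is.

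**Figure D1:**
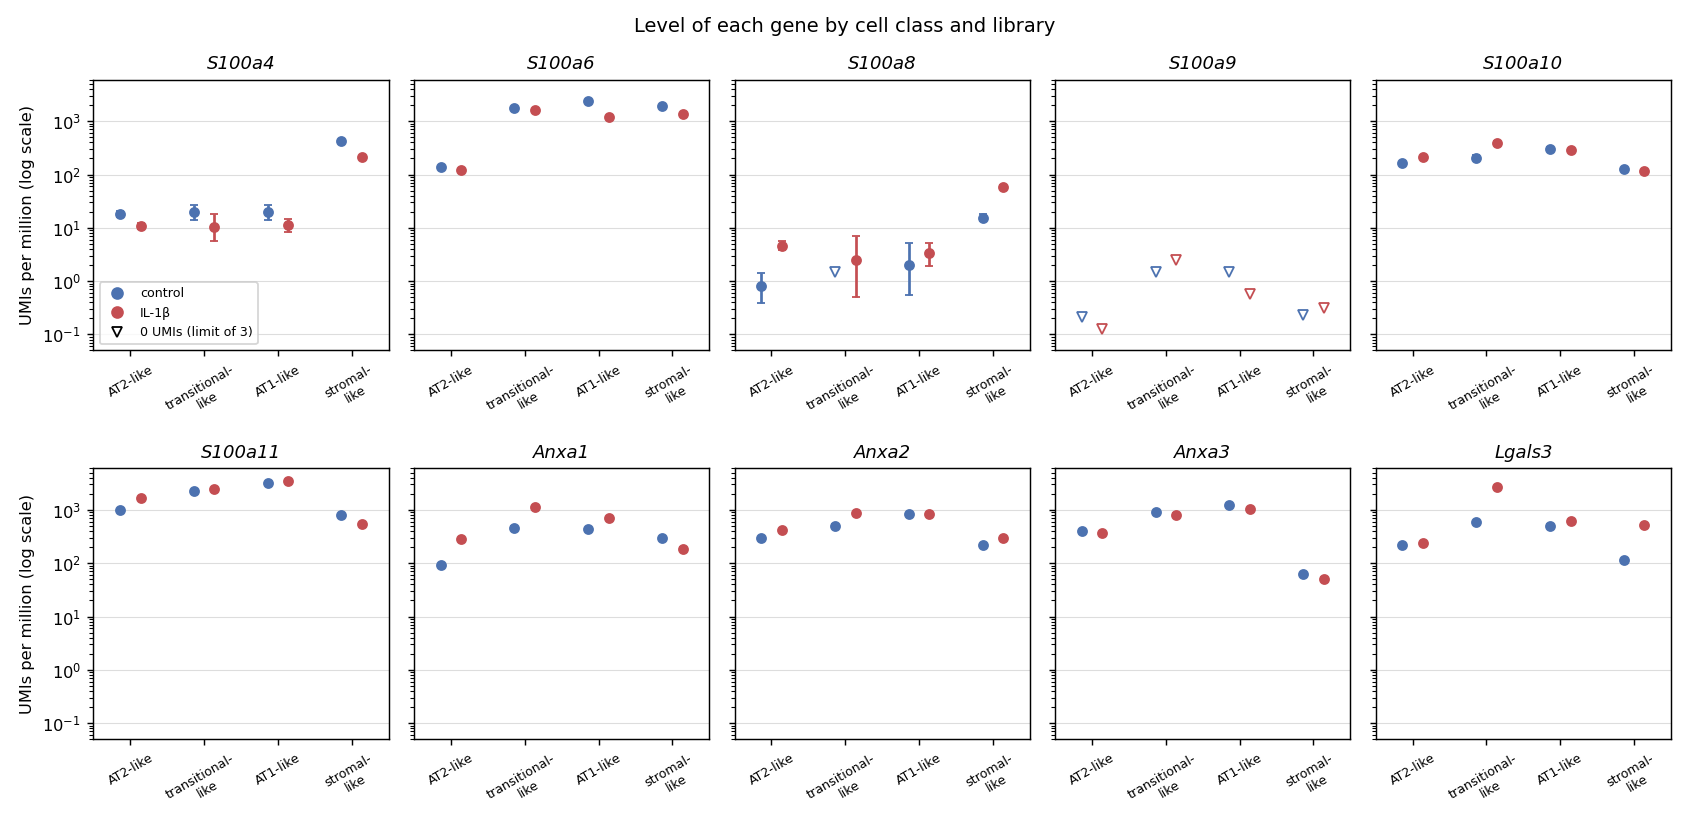
Level of each of the 10 genes in the 4 cell classes (x axis) of the control (blue) and IL-1β (red) libraries, in CPM on a log axis. Points are sums over cells, bars exact Poisson 95% intervals, and open triangles mark classes with 0 UMIs, drawn at the level of 3 UMIs; S100a4 and S100a8 are highest in stromal-like cells, S100a9 has no UMI anywhere, and Anxa1 in AT2-like cells stands at 90.7 in control and 291 with IL-1β.

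S100a8 and S100a9 encode the calprotectin pair, but only S100a8 was detected. S100a9 had 0 UMIs in every cell of both libraries, which allows at most 0.112 CPM in control and 0.0909 CPM with IL-1β (upper 95% limits over all kept cells). S100a8 had 216 UMIs in the control library and 692 in the IL-1β library, of which 92.1% and 80.6% lay in stromal-like cells. In stromal-like cells its level was 15.5 CPM (13.4 to 17.8) in control and 58.8 CPM (54.0 to 63.8) with IL-1β, a ratio of 3.80 (3.23 to 4.49).

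The S100a8 UMIs were unevenly spread among stromal-like cells. In control, 1 cluster of 109 cells led by Srgn, Wfdc21 and Fabp4 stood at 91.8 CPM and the other 3 at 0.702 to 6.55 CPM. Within that cluster 17 cells held all 142 UMIs, 2 of them held at least 50%, and the highest had 40, so that the control level rests in part on 2 cells. With IL-1β the 3 stromal-like clusters stood at 22.3, 40.1 and 269 CPM. The highest was a cluster of 47 cells led by Mmp10, Sfrp2 and Crabp1, in which 33 cells had a UMI. Of these, 4 cells held at least 50% of its 252 UMIs, and the highest had 47. In the IL-1β cluster at 40.1 CPM, 11 of 210 cells held at least 50% of 259 UMIs. The IL-1β level therefore also rests in part on few cells. The clusters of the libraries thus overlapped, with the highest control cluster above 2 of the 3 IL-1β clusters. The share of stromal-like cells with an S100a8 UMI, after every cell was thinned to 4000 UMIs, was 2.67% (1.64 to 4.09) in control and 12.6% (9.72 to 15.9) with IL-1β, and 6.93% and 29.9% before thinning. No cell was left out by the thinning in any class, and the median depths of these stromal-like cells were 15752.5 and 14828 UMIs. In other clusterings the ratio in stromal-like cells came to as much as 3.36 on the log2 scale, against 1.93 here.

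Some neutrophil genes were also higher with IL-1β in stromal-like cells. The summed level of the 9 neutrophil markers was 8.63 CPM in control and 42.2 CPM with IL-1β, with 6 of the 9 having a UMI in each. Nearly all of it came from Camp, at 3.65 and 24.2 CPM, and Mmp8, at 4.35 and 17.2 CPM. In these stromal-like cells Ngp and Mpo had 0 UMIs in both libraries and Csf3r had 1 UMI in each. Ptprc, the pan-leukocyte gene, had 1 UMI there in control and 0 with IL-1β. The part of these genes in the S100a8 level was not tested.

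In AT2-like cells S100a8 was at 0.793 CPM (0.396 to 1.42) in control and 4.63 CPM (3.81 to 5.58) with IL-1β, a ratio of 5.84 (3.14 to 12.04) over 11 and 111 UMIs. Those levels were 5.13% and 7.88% of the stromal-like level of the same library. Collagen genes and other stromal genes (Col1a1, Col1a2, Col3a1, Dcn, Lum, Mgp and Pdgfra) stood in AT2-like cells at 1.57% to 4.32% of their stromal-like level in control and at 1.63% to 4.70% with IL-1β. The share of AT2-like cells with an S100a8 UMI after thinning was 0.529% (0.172 to 1.23) and 2.11% (1.53 to 2.83). The part of free RNA from stromal cells in these low levels was not tested.

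S100a4, also called fibroblast-specific protein and expressed by fibroblasts and macrophages, was a stromal gene in both libraries. Its level was 425 CPM (414 to 437) in control stromal-like cells and 212 CPM (202 to 221) with IL-1β. The ratio of 0.497 (0.472 to 0.524) lay at the limit for a call, and scaling by TMM factors, which also removes a shift of -0.34 in the median log2 ratio of all genes in this class, brought the log2 ratio from -1.01 to -0.67. Among the stromal-like clusters S100a4 ran from 201 to 555 CPM in control and from 66.0 to 442 CPM with IL-1β. The lowest was the IL-1β cluster of 221 cells with the lowest depth (median 8157 UMIs, led by Postn and Col1a1), and without it the log2 ratio was -0.75. After thinning, 56.4% (52.8 to 60.0) of control and 31.0% (26.8 to 35.3) of IL-1β stromal-like cells had an S100a4 UMI, a difference also seen before thinning (79.7% and 58.8%).

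In the epithelial classes S100a4 stood at 18.3 to 20.002 CPM in control and 10.6 to 11.1 CPM with IL-1β, without order among AT2-like, transitional-like and AT1-like cells, whose intervals overlapped. These levels were 4.31% to 4.70% of the stromal-like level in control and 5.00% to 5.24% with IL-1β. The 7 collagen and other stromal genes named above stood in the same classes at 1.57% or more in control, with Mgp highest at 4.24% to 4.39997%, and at 0% to 4.70% with IL-1β. The S100a4 ratios of IL-1β to control were 0.597 (0.5004 to 0.712) in AT2-like and 0.554 (0.364 to 0.852) in AT1-like cells. S100a4 overlaps another annotated gene on the same strand, Gm42674, which shares 47.4% of the 50-base words of its 3′ end, so its level is uncertain.

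S100a6, also called calcyclin, separated AT2-like cells from transitional-like, AT1-like and stromal-like cells. In control it was at 139 CPM (133 to 146) in AT2-like, 1743 CPM (1686 to 1801) in transitional-like, 2372 CPM (2305 to 2441) in AT1-like and 1914 CPM (1890 to 1938) in stromal-like cells. With IL-1β the levels were 122 CPM (118 to 127), 1614 CPM (1544 to 1686), 1204 CPM (1175 to 1235) and 1365 CPM (1342 to 1389). The AT1-like over AT2-like ratio was 17.0 (16.1 to 17.9) in control and 9.86 (9.44 to 10.3) with IL-1β. Every neighbouring pair in the order of these levels was apart in both libraries. Of the 4 classes, AT1-like cells had the highest level in control but stood below transitional-like and stromal-like cells with IL-1β in this clustering. With IL-1β the log2 ratio to AT2-like cells ran over the alternatives from 1.38 to 3.72 in transitional-like, 3.02 to 3.75 in AT1-like and 3.13 to 3.73 in stromal-like cells, so that their order is not fixed.

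The IL-1β to control ratio of S100a6 in AT1-like cells was 0.508 (0.489 to 0.527), just short of the limit for a call. It ran from -1.03 to -0.43 on the log2 scale over 15 alternatives, all below 0, and the value nearest 0 came when these genes were kept in the clustering, which put 263 control cells in the class. After thinning, 90.6% of control and 79.1% of IL-1β AT1-like cells had an S100a6 UMI. Ager, the AT1 gene that encodes the receptor of several S100 proteins, was also lower in AT1-like cells with IL-1β, at 17230 and 7165 CPM (ratio 0.416, 0.410 to 0.422), as was Ahnak, a large scaffold protein that binds S100a10 and Anxa2 (1301 and 470 CPM, ratio 0.361, 0.341 to 0.382). The summed level of the 15 AT1 markers was 17918 CPM in control and 8383 CPM with IL-1β, and their part in the S100a6 difference was not tested.

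Among the 4 classes S100a10 and S100a11, the annexin partners, were highest in the AT1-like and transitional-like cells. S100a11 was at 999 CPM (982 to 1015) in control AT2-like, 2248 CPM (2183 to 2314) in transitional-like, 3246 CPM (3168 to 3326) in AT1-like and 816 CPM (800 to 832) in stromal-like cells. With IL-1β these levels were 1704 CPM (1688 to 1721), 2427 CPM (2341 to 2516), 3471 CPM (3420 to 3522) and 538 CPM (523 to 553). In this clustering the order of the classes was the same in both libraries with no overlap of intervals, and the IL-1β to control ratio was above 1 in AT2-like cells (1.71, 1.67 to 1.74) and below 1 in stromal-like cells (0.659, 0.637 to 0.681). The 6 IL-1β AT2-like clusters ran from 1292 to 2345 CPM and the 4 control ones from 833 to 1180 CPM, so that they did not overlap. The share of all genes that separate this way was not computed. The stromal-like clusters did overlap, at 536, 716, 750 and 1377 CPM in control and 388, 574 and 619 CPM with IL-1β. The one at 1377 CPM was the control cluster led by Thbs1. Other annotated genes (Gm12854, Gm29240 and Gm7665) share 41.1% of the 50-base words of the 3′ end of S100a11, which leaves its level uncertain.

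S100a10 was at 165 CPM (158 to 172) in AT2-like, 208 CPM (189 to 229) in transitional-like, 305 CPM (281 to 330) in AT1-like and 128 CPM (122 to 134) in stromal-like cells of the control. The IL-1β levels were 210 CPM (204 to 216), 385 CPM (351 to 421), 284 CPM (270 to 299) and 115 CPM (108 to 122). S100a10 was called in none of the 10 comparisons. Its highest ratios were 1.85 (1.62 to 2.11) for IL-1β over control in transitional-like cells and 1.85 (1.69 to 2.02) for AT1-like over AT2-like cells in control. The former ran from -0.96 to 0.96 on the log2 scale over 14 alternatives and kept its sign in 11.

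Anxa1, which restrains inflammation through formyl peptide receptors, had the largest IL-1β to control ratio in AT2-like cells after S100a8. Its level there was 90.7 CPM (85.7 to 95.8) in control and 291 CPM (284 to 298) with IL-1β, a ratio of 3.21 (3.02 to 3.41). The 4 control AT2-like clusters stood at 49.8, 67.8, 102.6 and 181 CPM, and the 6 IL-1β ones at 177 to 503 CPM. The lowest IL-1β cluster was thus just below the highest control cluster, which was led by Cxcl5, Ly6i, Il4i1 and Cd14, genes of an inflammatory response. After thinning, 22.6% (20.01 to 25.4) of control and 58.2% (56.0 to 60.4) of IL-1β AT2-like cells had an Anxa1 UMI, against 52.0% and 84.5% before thinning.

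In AT1-like cells Anxa1 was at 432 CPM (403 to 461) in control and 698 CPM (675 to 721) with IL-1β, a ratio of 1.62 (1.501 to 1.74). In stromal-like cells it was at 298 CPM (289 to 308) and 189 CPM (180 to 198), a ratio of 0.632 (0.597 to 0.668), and it varied between control stromal-like clusters from 145 CPM to 701 CPM, the highest being the contractile cluster with Thbs1 and Acta2 among its leading genes. The AT2-like level was therefore the lowest of the 4 in control and above the stromal-like one with IL-1β. Stromal-like over AT2-like cells gave 3.29 (3.09 to 3.51) in control and 0.649 (0.616 to 0.683) with IL-1β.

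Formyl peptide receptor genes, which bind Anxa1, were near absent from the epithelium: Fpr2 had 1 UMI in control and 6 UMIs in IL-1β AT2-like cells, and 17 and 13 UMIs in stromal-like cells (1.32 and 1.37 CPM).

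Anxa2 and Anxa3 were highest in AT1-like cells of the control. Anxa2, which carries S100a10 and plasminogen receptors at the surface, was at 295 CPM (286 to 304) in control AT2-like, 506 CPM (476 to 538) in transitional-like, 821 CPM (782 to 862) in AT1-like and 221 CPM (213 to 229) in stromal-like cells. With IL-1β it was at 420 CPM (412 to 428), 866 CPM (815 to 919), 833 CPM (808 to 858) and 298 CPM (287 to 309), and the transitional-like and AT1-like intervals overlapped. Its ratio of IL-1β to control was 1.42 (1.37 to 1.48) in AT2-like and 1.35 (1.28 to 1.42) in stromal-like cells, below the limit for a call, and 1.01 (0.958 to 1.07) in AT1-like cells.

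Anxa3 had the lowest stromal-like over AT2-like ratio of the members compared in both libraries. It was at 1250 CPM (1201 to 1300) in control AT1-like cells, 900 CPM (860 to 942) in transitional-like, 396 CPM (386 to 407) in AT2-like and 62.0 CPM (57.7 to 66.4) in stromal-like cells, and at 1049 CPM (1021 to 1077), 808 CPM (759 to 860), 375 CPM (367 to 383) and 51.3 CPM (46.8 to 56.0) with IL-1β. Stromal-like over AT2-like cells gave 0.156 (0.145 to 0.168) in control and 0.137 (0.125 to 0.1499) with IL-1β. Its IL-1β to control ratios lay between 0.828 and 0.946 in the 4 classes, none of them called.

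Lgals3 was called in stromal-like and transitional-like cells. Its stromal-like level was 114 CPM (108 to 120) in control and 511 CPM (497 to 525) with IL-1β, a ratio of 4.49 (4.24 to 4.77). The 4 control stromal-like clusters stood at 54.8, 96.0, 122 and 222 CPM and the 3 IL-1β ones at 353, 543 and 646 CPM, with no overlap. How many of all genes separate by cluster in this way was not computed. After thinning, 24.0% (20.98 to 27.2) of control and 62.6% (58.0 to 66.9) of IL-1β stromal-like cells had a UMI, against 52.1% and 87.0% before thinning. Macrophage and other immune markers summed to 10.3 CPM in control and 5.05 CPM with IL-1β in these cells, 9 and 4 of the 10 with a UMI, with C1qa, C1qb, Laptm5, Adgre1 and Itgam at 0 UMIs with IL-1β, and their part in the Lgals3 ratio was not tested. The log2 ratio stayed between 2.05 and 2.50 over the 15 alternatives.

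In AT2-like cells the summed Lgals3 level hardly differed, at 222 CPM (214 to 230) in control and 237 CPM (231 to 244) with IL-1β. Its ratio was 1.07 (1.03 to 1.12), while the shares of cells with a UMI lay apart. After thinning, 41.8% (38.6 to 45.0) of control and 54.6% (52.4 to 56.8) of IL-1β AT2-like cells had an Lgals3 UMI. Before thinning the shares were 76.0% and 82.8%. The log2 ratio of the summed level, 0.10, ran from -0.16 to 0.89 over the alternatives and kept its sign in 8 of 15. The clusters inside the class spread far more than the libraries: 121 to 509 CPM in control, the highest again being the cluster led by Cxcl5 and Cd14, and 135 to 512 CPM with IL-1β. AT1-like cells had 502 CPM (471 to 534) and 631 CPM (609 to 653).

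In this clustering transitional-like cells had the highest Lgals3 of the 4 classes in both libraries, 583 CPM (550 to 617) in control and 2677 CPM (2587 to 2770) with IL-1β. The ratio of 4.59 (4.29 to 4.91) and that of Anxa1 in the same class, 2.41 (2.21 to 2.62) from 463 CPM (434 to 493) and 1114 CPM (1056 to 1174), depend on which cells are given the name. In the 3 clusterings that left 14 to 19 control cells in the class both turned over, Lgals3 to -1.06, -1.11 and -1.33 and Anxa1 to -1.35, -1.82 and -2.39 on the log2 scale. Within the IL-1β library the transitional-like over AT2-like ratio of Lgals3 was 11.3 (10.8 to 11.8). Its log2 value ran from 1.93 to 3.496 over the alternatives, and the largest is that of this clustering.

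**Figure D2:**
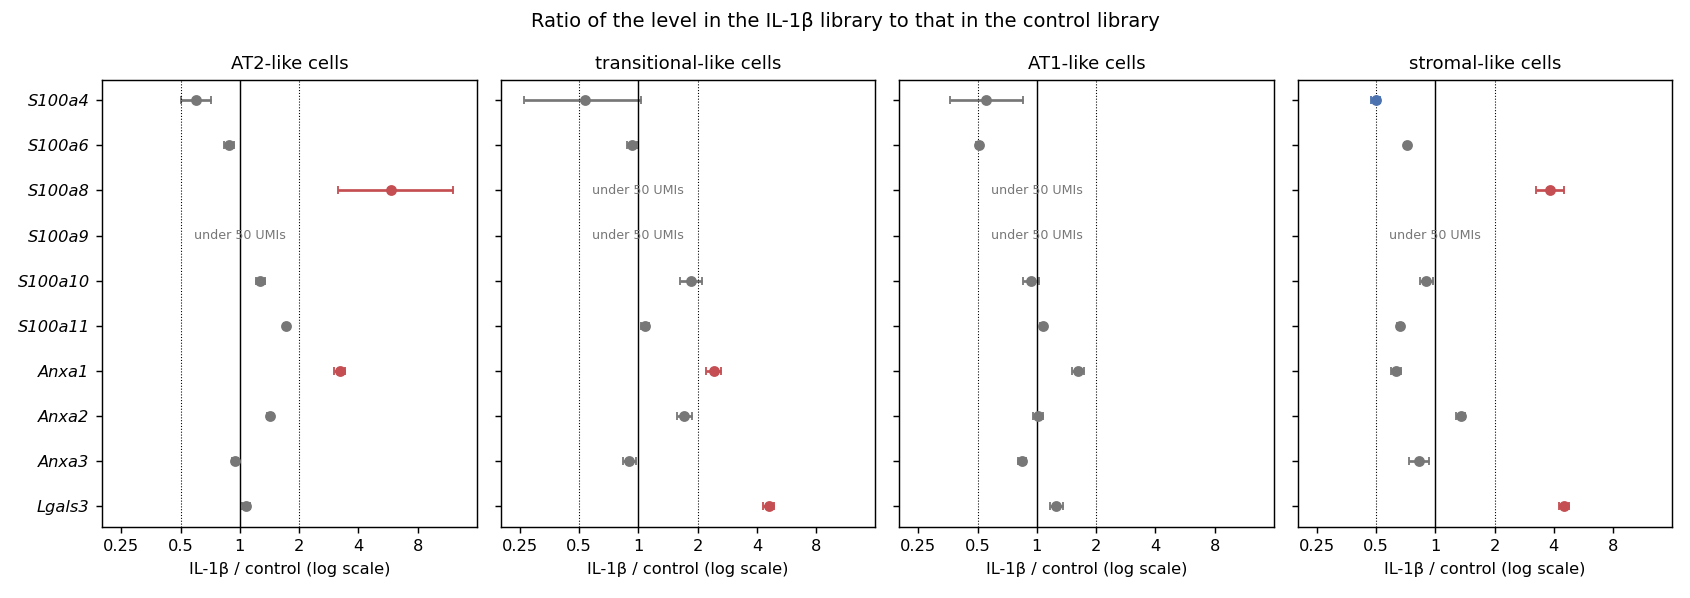
Ratio of the level in the IL-1β library to that in the control library (x axis, log scale) for the 10 genes in each of the 4 cell classes, with exact 95% intervals. Red points are called higher, blue lower, and grey not called, the dotted lines mark 0.5 and 2, and genes with under 50 UMIs over both libraries have no point; S100a8 and Lgals3 in stromal-like cells lie at 3.80 and 4.49, Anxa1 in AT2-like cells at 3.21.

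Of the 10 genes, 9 reached 50 UMIs in AT2-like cells, and 2 (S100a8 and Anxa1) were called higher with IL-1β and 0 lower, where 8.35% of all 11434 genes were called higher and 3.45% lower. In transitional-like cells 8 reached 50 UMIs and 2 (Anxa1 and Lgals3) were higher, against 5.52% of genes higher and 7.35% lower. In AT1-like cells 8 reached 50 UMIs and 0 were called, against 6.75% of genes higher and 3.97% lower. In stromal-like cells 9 reached 50 UMIs, 2 (S100a8 and Lgals3) were higher and 1 (S100a4) lower, against 4.59% higher and 11.6% lower. The median log2 ratio of the members was 0.35 in AT2-like cells and -0.27 in stromal-like cells, where all genes had medians of 0.13 and -0.34.

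Between classes the calls were more numerous. The median log2 ratio of all genes to AT2-like cells was itself 0.36 in transitional-like, 0.39 in AT1-like and 0.35 in stromal-like cells of the control. With IL-1β these medians were 0.17, 0.29 and -0.15. In control, 6 of the 8 members with 50 UMIs were higher in AT1-like than in AT2-like cells (S100a6, S100a11, Anxa1, Anxa2, Anxa3 and Lgals3), against 21.1% of genes called higher, and 0 were lower (9.65% of genes). In transitional-like cells 5 of 8 were higher, against 13.2%, and 0 lower, against 4.27%. With IL-1β, 5 of 9 were higher in AT1-like cells (11.1% of genes) and 5 of 9 in transitional-like cells (8.54%). In both 0 were lower, where 5.89% and 6.34% of genes were. The IL-1β transitional-like count fell under every other clustering or cell filter that gave the class, as listed below. None of its called ratios was larger under an alternative, and the log2 value of Anxa2 ran down to 0.48 and that of Anxa3 to 0.18. Anxa2 in AT1-like cells was just short of a call, at 1.98 (1.91 to 2.06). Stromal-like cells of the control had 4 of 9 higher than AT2-like cells (S100a4, S100a6, S100a8 and Anxa1; 26.4% of genes) and 1 lower, Anxa3 (13.4% of genes). With IL-1β 4 of 9 were higher there (S100a4, S100a6, S100a8 and Lgals3; 15.4% of genes) and 2 lower, S100a11 and Anxa3 (20.5% of genes). The comparisons with AT2-like cells share that class within a library.

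**Figure D3:**
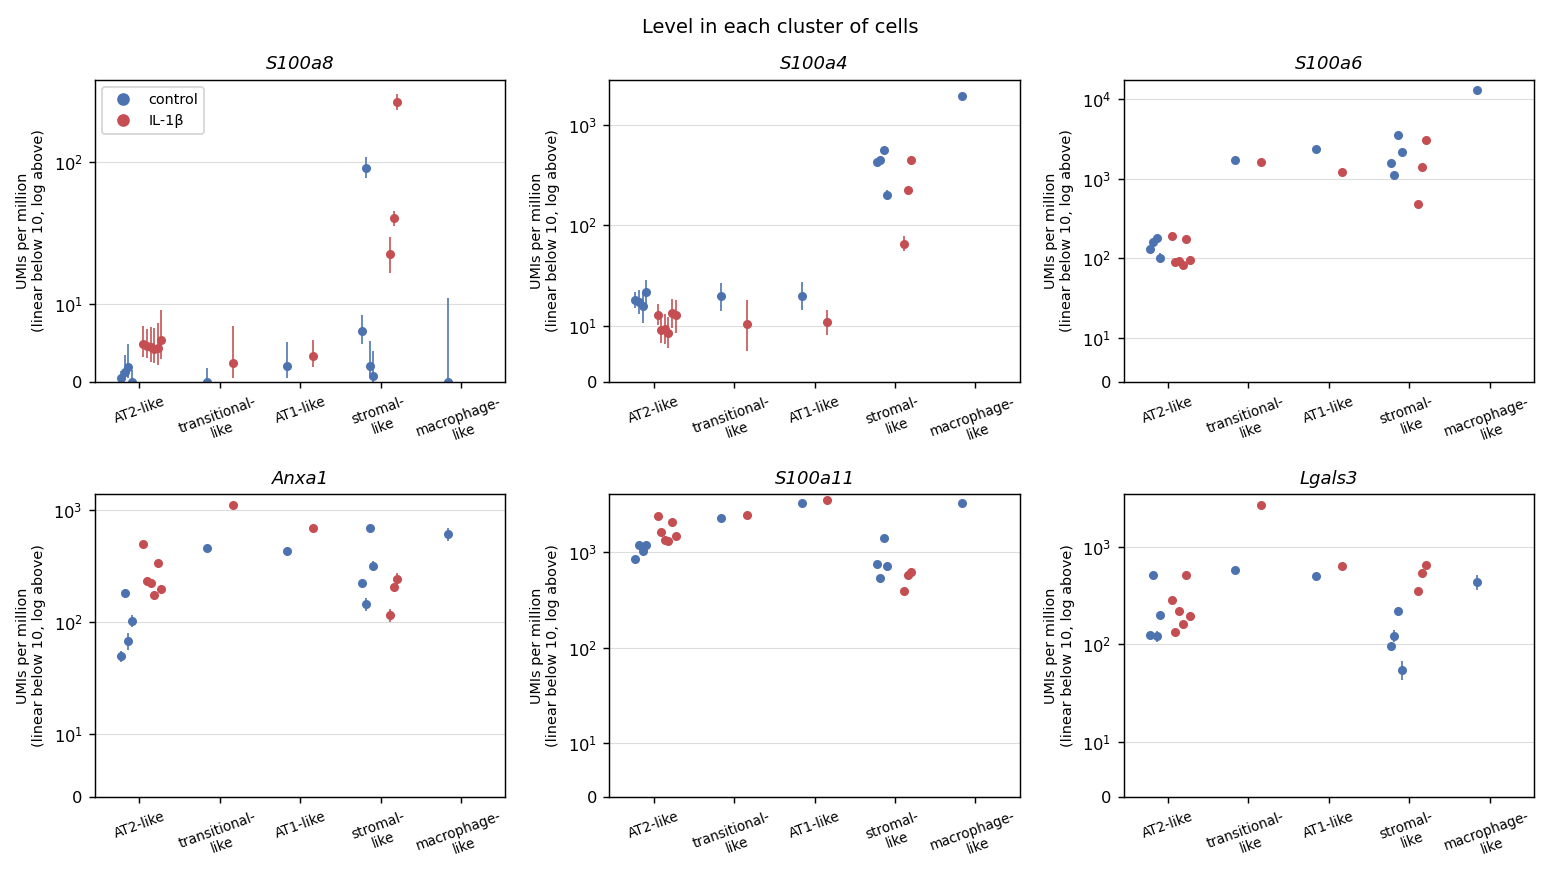
Level of 6 of the genes in every cluster of the 4 classes and of the control macrophage-like cluster (x axis), in CPM, on an axis that is linear below 10 and logarithmic above. Each point is 1 cluster with its exact Poisson 95% interval, blue for control and red for IL-1β; S100a8 is highest in 1 stromal-like cluster of each library, at 91.8 and 269, and Lgals3 in stromal-like cells does not overlap between the libraries.

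Across the 14 epithelial clusters of at least 50 cells in the 3 epithelial classes, S100a6, S100a10, S100a11, the annexins and Lgals3 varied together. The Pearson correlation of log2(CPM + 10) over their pairs ran from 0.68 to 0.94, and binding partners did not stand apart. It was 0.91 between S100a11 and Anxa2, 0.91 between S100a11 and Anxa1, 0.90 between S100a10 and Anxa1 and 0.89 between S100a10 and Anxa2. It was also 0.87 between Anxa1 and Anxa2, 0.86 between S100a10 and Lgals3 and 0.94 between S100a6 and Anxa3. When the stromal-like clusters were added (20 clusters), S100a6 and Anxa3 stood at -0.20. These clusters share 2 libraries and their depths, and the values are a description.

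The genes whose 8 class-by-library profiles were most like each member, out of 8738 genes with at least 500 UMIs, were Prrx2 (Pearson r 0.9985), Mfap4 and Impact for S100a4, and Uck2 (0.985), Hspb1 and Itgb1 for S100a6. For S100a8 they were Csf3 (0.9949), Calcrl and Sorcs1. Csf3, which encodes the neutrophil growth factor G-CSF, was at 39.6 CPM in control and 240 CPM with IL-1β in stromal-like cells. Among the IL-1β stromal-like clusters it ran from 220 to 308 CPM where S100a8 ran from 22.3 to 269 CPM. In control the stromal-like cluster with the highest S100a8, 91.8 CPM, had Csf3 at 25.2 CPM. The control cluster with the highest Csf3, 51.3 CPM, had S100a8 at 6.55 CPM. For S100a10 they were Tm2d3, Ddx19a and H2afy (0.9835 to 0.9876), for S100a11 Sorcs2 and Myl12b (0.9885 to 0.9898), for Anxa1 Abcf3, Dnajc8 and Cc2d1a (0.9809 to 0.9855), for Anxa2 Ift52 and S100a14 (0.98 to 0.9835), for Anxa3 Msra, Tom1l1 and Scarb2 (0.9944 to 0.9971), and for Lgals3 Rac3 (0.9733), Ak6 (0.9547) and Trib3 (0.9399). With 8 points and 8738 candidates, these values are a description. They compare the shape of the profiles and not the size of the differences. Rac3 ran from 57.8 to 85.4 CPM over the 8 profiles, where Lgals3 ran from 114 to 2677 CPM. Abcf3 ran from 12.7 to 23.6 CPM, where Anxa1 ran from 90.7 to 1114 CPM.

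Relatives of the 10 genes were read from a fixed list of 27 other S100, annexin and galectin genes. In AT2-like cells 15 had 50 UMIs, and 3 were higher and 1 lower with IL-1β, where 8.35% of all genes compared were higher and 3.45% lower. The higher ones were S100a14 (14.1 and 46.8 CPM, ratio 3.33, 2.86 to 3.89), Anxa5 (85.2 and 209 CPM, 2.45, 2.30 to 2.61), the annexin used to detect dying cells, and S100a1 (177 and 374 CPM, 2.11, 2.02 to 2.21). The lower one was S100g, calbindin-D9k, a calcium-binding protein of AT2 cells, at 1243 and 464 CPM (0.373, 0.365 to 0.382). In transitional-like cells S100a14 and Anxa8 were higher (4.399 and 3.70), 2 of 14, against 5.52% of genes higher and 7.35% lower. In AT1-like cells 0 of 13 were called, where 6.75% of genes were higher and 3.97% lower. In stromal-like cells S100a14 was higher (2.14, at 7.16 CPM) and Anxa8, Lgalsl and Lgals9 lower (0.379, 0.407 and 0.480), 4 of 16, against 4.59% of genes higher and 11.6% lower. Lgals1, the galectin of stromal cells, was at 3114 CPM in control and 2325 CPM with IL-1β there, and at 127 and 120 CPM in AT2-like cells.

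Of 19 receptors and partners, 15 had 50 UMIs in AT2-like cells and 6 were higher with IL-1β, 0 lower, against the same 8.35% and 3.45% of genes. The largest ratios were those of Ahnak2 (7.57 and 35.0 CPM, 4.63, 3.78 to 5.73), Cd44 (97.8 and 360 CPM, 3.68, 3.48 to 3.90), Plat (3.30) and Plaur (2.31), the last 2 under 6 CPM, and the others Bsg (2.25) and Pla2g4a (2.10). Cd44, the hyaluronan receptor that galectin-3 binds, was at 26.5 and 368 CPM in AT1-like cells (13.9, 10.6 to 18.6), where Cd36 and Tlr4 were also higher and Ager and Ahnak lower, 5 of 13, against 6.75% of genes higher and 3.97% lower. In stromal-like cells 1 of 15 was called, Ahnak, lower at 0.481 (0.451 to 0.514) where 11.6% of genes were lower, and Cd44 was at 442 and 282 CPM. In transitional-like cells Bsg (6.94), Plaur (3.93) and Cd44 (3.72) were higher and Ager (0.320) and Ahnak (0.465) lower, 5 of 12, against 5.52% of genes higher and 7.35% lower. The list genes were not recomputed under the other clusterings, so their transitional-like ratios hold for the 111 and 114 cells of this one. Of 12 genes of membrane repair, 9 or 10 had 50 UMIs in each class and 0 were called between the libraries in any of the 4. Against AT2-like cells of the control, 2 of 9 membrane repair genes were higher in AT1-like cells, where 21.1% of all genes were. In transitional-like cells it was 1 of 9 (13.2% of genes) and in stromal-like cells 2 of 10 (26.4% of genes). In each of these 0 were lower, where 9.65%, 4.27% and 13.4% of genes were. Capn2, a calpain that acts at membrane tears, was at 6.23 in AT1-like, 3.13 in transitional-like and 2.08 in stromal-like cells.

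**Figure D4:**
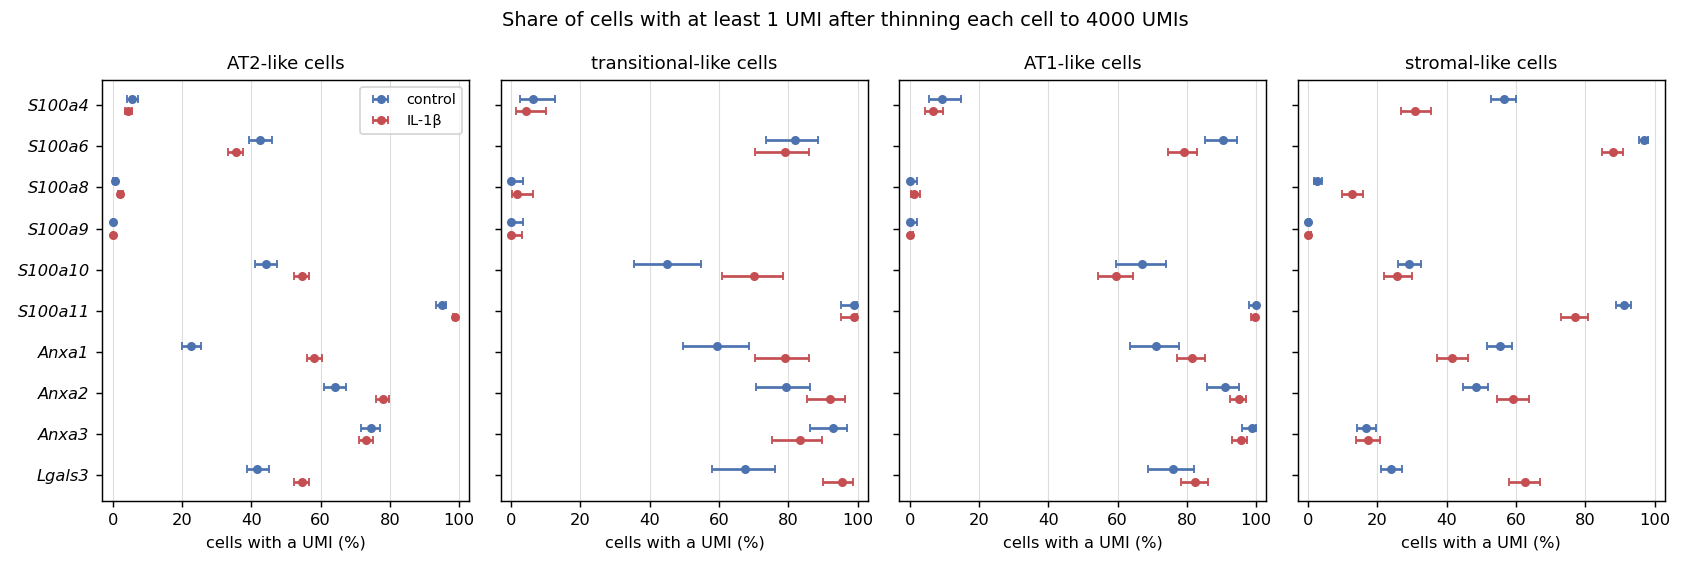
Percentage of cells with at least 1 UMI of each gene after every cell was thinned to 4000 UMIs (x axis), for control (blue) and IL-1β (red) cells of the 4 classes, with exact Clopper-Pearson 95% intervals. Anxa1 in AT2-like cells stands at 22.6% and 58.2%, Lgals3 in stromal-like cells at 24.0% and 62.6%, and S100a8 in AT2-like cells at 0.529% and 2.11%.

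Summed over all cells of a library, S100a6 was at 1219 CPM in control and 595 CPM with IL-1β, and S100a4 at 199 and 57.9 CPM. Both are mostly stromal here, with 61.5% and 83.8% of their control UMIs in stromal-like cells, a class that was 36.0% of the kept control cells and 15.6% of the IL-1β cells. Anxa1 was at 226 and 344 CPM in the whole libraries, and 51.8% of its control UMIs but 12.8% of its IL-1β UMIs were in stromal-like cells, where AT2-like cells held 17.0% and 49.9%. The whole-library values therefore mix the share of each class with the level in it.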

How the data were processed

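The organoid cultures with PBS and with IL-1β each gave 1 library. The deposited files hold raw UMI counts per gene and cell, which the authors obtained from 10x 3′ reads by Cell Ranger alignment to GRCm38 (the labels also list mm9); the submitters' processing notes also name Scanpy 1.3.6. Cells outside the authors' cutoffs are still in the files.

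Their cutoffs (over 500 genes, under 7000 genes, over 2000 UMIs) left 5142 of 5167 barcodes, and 11 barcode sequences occurred in both libraries. Each library was clustered on its own with scanpy 1.11.5 (scaling to 10000 per cell, 50 principal components, 15 neighbors, Leiden resolution 1 with leidenalg 0.10.2), leaving out the 10 genes and the 58 genes of the lists. Clusters with at least 100 CPM of Epcam were named among the epithelial classes by the mean standardized level of the markers, and the others among stromal, immune, endothelial and mesothelial classes by the mean log2 ratio of the markers to the epithelial clusters. They stayed unnamed with fewer than 3 markers above the other clusters or with more markers of another class than of their own among the top 10 genes. A cluster closest to cycling cells also stayed unnamed when no cycling marker was among those 10 genes. So did a cluster with a median depth far below that of its library and no marker of its own there. This naming rule and the Epcam limit were set after clusters had been seen. Doublets were not removed, and leaving out the 5% of cells with the highest scrublet scores was an alternative. Cycling, macrophage-like and unnamed cells entered no comparison.

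UMIs were summed per class and library. Intervals are exact Poisson for levels, exact conditional binomial for ratios and Clopper-Pearson for shares, all at 95%, and cover counting error only. A count of 0 was taken to allow 3 UMIs in ratios. Cells are not replicates, so no p-value was computed. Ratios and intervals were checked on simulated counts in which 200 genes had known folds. TMM factors came from edgeR 4.0.16 and served scaling only. Promoters are those of RefSeq, gene positions those of GENCODE M21, and words of 50 bases from the last 600 bases of coding transcripts were searched for in other genes.

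The 10 genes, the lists and the marker genes were chosen with earlier results of these data known. All 10 are described everywhere; from each list the number called per comparison and at most 4 genes with the largest log2 ratio are eligible for naming, beside others named where a sentence turns on them (Fpr2, Cd44, Lgals1, Ager and genes defining a cell type, chosen after their values were seen), and for each member the 3 genes with the most similar profile. Some of the genes this rule names, or that lead a cluster, are not reported here. The alternatives varied clustering, cutoffs, doublets, scaling, the filter on low counts, the fold and the depth of thinning, and 2 (dropping a cluster of the AT2-like or of the stromal-like class) were added after the data were seen.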

Additional observations from a re-analysis of the deposited data

Results flagged for a closer look

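Anxa1 and S100a11 are listed because their IL-1β to control ratios went in opposite directions in epithelial and stromal-like cells, with intervals on either side of 1 under both scalings. The log2 ratio of Anxa1 was 1.68 in AT2-like, 1.27 in transitional-like and 0.69 in AT1-like cells against -0.66 in stromal-like cells (1.56, 1.34, 0.71 and -0.33 with TMM scaling). The log2 ratio of S100a11 was 0.77 in AT2-like cells against -0.60 in stromal-like cells (0.65 and -0.27 with TMM scaling). For both genes the stromal-like clusters of the libraries overlapped. The difference between the classes was not tested, since each has 1 library per condition.

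A cluster of 31 macrophage-like cells in the control library, used in no comparison, is listed for S100a4 and S100a6. Both stood at more than 2 times their highest level in the 4 classes of either library. S100a10 and Anxa2 were not listed but also stood above their highest class levels, those of IL-1β transitional-like cells. S100a10 was at 791 CPM (699 to 892) against 385 CPM (351 to 421), and Anxa2 at 1225 CPM (1110 to 1349) against 866 CPM (815 to 919). S100a6 was at 13233 CPM (12849 to 13626) and S100a4 at 1925 CPM (1780 to 2078), where the stromal-like cells of the control had 1914 and 425 CPM. The cluster was led by Wfdc17, Ccl12, Ccl6 and Mrc1. Its 10 immune markers summed to 1077 CPM, with 8 at 10 CPM or more. In control AT2-like and stromal-like cells they summed to 5.48 and 10.3 CPM, with 0 at that level. In all of these cells 9 of the 10 had a UMI. The cluster also held stromal genes, whose markers summed to 17454 CPM against 23405 CPM in control stromal-like cells. Acta2 was at 2716 CPM against 335 CPM in stromal-like cells. No IL-1β cluster took that name.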

How the results depend on the processing

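No paired analysis was possible because each condition has 1 library, and for the same reason no library could be left out. Over 15 alternatives, 571 of 577 values of the 39 called ratios kept their direction. A changed fold or filter on low counts cannot move a ratio, and dropping 1 cluster moves only comparisons with its class. Part of the 571 therefore could not have turned over. The 6 that turned over are the IL-1β to control log2 ratios in transitional-like cells of Anxa1 (-1.35 with joint clustering, -1.82 without the 5% of cells with the highest doublet scores, -2.39 with the members kept in the clustering) and Lgals3 (-1.06, -1.11 and -1.33), where the control class shrank to 14 to 19 cells.

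Of the counts of members called, 249 stayed within 1.5 times and 47 did not. In transitional-like cells the 2 called higher with IL-1β became 0 in those 3 clusterings, 1 with double resolution, another seed or no cell cutoffs, and 4 with a fold of 1.5. The 0 called lower became 5 in those 3 clusterings and 1 with another seed, no cutoffs, the mean of the cells' own CPM or a fold of 1.5. A resolution lowered to 0.5 gave no transitional-like class with IL-1β. In AT1-like cells the 0 called lower became 1 without cutoffs or with the mean of cells and 2 with a fold of 1.5, and the 0 called higher became 1 with a fold of 1.5 or with members kept in the clustering. In stromal-like cells the 1 called lower, S100a4, became 0 without cutoffs, with TMM scaling or without the IL-1β cluster of low depth, and 3 with a fold of 1.5. In AT2-like cells the 2 called higher became 1 with a minimum of 200 UMIs, and the 0 called lower became 1 with a fold of 1.5.

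Against AT2-like cells, the 5 higher in control transitional-like cells became 3 with double resolution or TMM scaling. With IL-1β the 5 became 3 with joint clustering, double resolution, another seed, no cutoffs, doublets left out, totals without surfactant, mitochondrial and ribosomal protein genes, TMM scaling or the mean of cells, and 2 with members kept in the clustering. The 0 lower there became 1 with those totals, TMM scaling or a fold of 1.5. The 5 higher in IL-1β AT1-like cells became 3 with TMM scaling. In stromal-like cells the 1 lower in control became 2 with doublets left out, those totals, TMM scaling, the mean of cells, a fold of 1.5 or without the Scgb1a1-led AT2-like cluster, and the 2 lower with IL-1β became 4 with a fold of 1.5. The causes were not tested. Leaving out the Scgb1a1-led and the low-depth cluster were alternatives chosen after seeing the data. S100a8 had few UMIs in the epithelium, where control classes held 0 to 11, and S100a9 had 0 UMIs in every class of both libraries. The part of depth in these low counts was not tested.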

Other observations

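The other members were also measured in the macrophage-like cells of the control. S100a10, which carries plasminogen to the cell surface, was at 791 CPM (699 to 892), Anxa2 at 1225 CPM (1110 to 1349), S100a11 at 3206 CPM (3018 to 3402) and Anxa1 at 611 CPM (531 to 700) in the 31 cells. Lgals3, often used as a macrophage marker, was at 431 CPM (364 to 507). The S100a11 and Lgals3 intervals overlapped those of AT1-like cells, and S100a8 and S100a9 had 0 UMIs, which allows up to 10.9 CPM. The 10 genes together took 2.16% of all UMIs in these cells, against 0.233% in AT2-like, 0.667% in transitional-like, 0.895% in AT1-like and 0.399% in stromal-like cells of the same library.

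The 57 cycling epithelial cells of the control were close to AT2-like cells in S100a6 (124 CPM, 105 to 145), Anxa3 (386 CPM, 352 to 422) and S100a10 (176 CPM, 153 to 201). They stood higher in Anxa1 (169 CPM, 147 to 194, against 90.7 CPM) and Anxa2 (390 CPM, 356 to 427, against 295 CPM). S100a11 was also higher (1095 CPM, 1037 to 1155, against 999 CPM), and Lgals3 was lower (152 CPM, 131 to 176, against 222 CPM). Each of these values lay inside the spread of the 4 control AT2-like clusters. They ran from 49.8 to 181 CPM in Anxa1 and from 240 to 439 CPM in Anxa2. In S100a11 they ran from 833 to 1180 CPM and in Lgals3 from 121 to 509 CPM.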
